A study of Bos taurus with 12 samples.

Results

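Cytosolic ribosomal protein genes encode the proteins that, with ribosomal RNA, build the small and the large subunit of the ribosome, the particle that translates messenger RNA in the cytoplasm. Their messages are among the most abundant in growing tissue and are made in matched amounts, and many begin with a pyrimidine-rich tract through which mTOR signalling controls their translation. A few of the proteins also act outside the ribosome, for example in the p53 response to faulty ribosome assembly. In the endometrium, the secreting lining of the uterus, protein output changes as the cycle passes from its early luteal stage into the stage with high progesterone.

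The genes were chosen by name. A gene was taken when its annotated symbol was RPL or RPS followed by digits, with an optional final A, L, X or Y, or was RPLP0, RPLP1, RPLP2 or RPSA. S6 kinases and mitochondrial ribosomal proteins were left out. No measured value entered the choice of genes, but where a gene had several probe sets the one with the highest mean signal over the 12 arrays represented it. This gave 64 of 9155 named genes, 40 of the large and 24 of the small subunit. They held 87 of 24016 tested probe sets: 48 genes had 1 probe set and 16 had several. All 64 symbols were also found in a current cattle gene table.

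Endometrial RNA of Simmental heifers was pooled and each pool was put on its own array, 12 in all. The 4 groups of 3 pools were receptive and non-receptive endometrium of cycle day 3 and of cycle day 7. According to the design text, receptivity was set by whether a pregnancy followed, and the titles add the words in vivo. No drug treatment and no age is given, and neither the number of heifers in a pool nor whether pools came from separate animals is stated. A p-value below thus sets a difference against how much pools vary, part of which may be technical.

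The ribosomal protein genes were bright on the array. Of the 64 genes, 59 had a mean log2 signal above 12, between 12.43 (RPS9) and 13.78 (RPL7), while the highest value anywhere on the 12 arrays was 14.06 and the array medians lay between 6.64 and 6.76. The 5 dim ones were RPL37 (3.80), RPL3L (4.51), RPS19 (7.44), RPS28 (10.55) and RPS27L (11.24). RPL3L, the muscle form of RPL3, and RPS27L, a relative of RPS27 induced by p53, are known not to be core ribosome genes in most tissues, whereas RPL37, RPS19 and RPS28 are core genes. A probe set's signal also depends on how well its probes bind, so signals of different genes were not ranked against each other. No value of the 64 genes was 0, the lowest value the table holds.

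Pools differed little in these genes. The SD between pools of the same group (the residual SD of the fit) had a median of 0.075 log2 units over the 64 genes, against 0.251 over all probe sets. Because bright probe sets vary less, the nearer comparison is with the 125 probe sets outside the name rule in the signal range of the bright ribosomal protein genes. Their median was 0.117, against 0.074 for the 59 bright ribosomal protein genes. Of the 125, 94 carry a gene symbol, and some of the rest may detect ribosomal proteins. FAU, which encodes a ribosomal protein as a fusion, also lies in this signal range. The smallest residual SDs were those of RPL30 (0.035), RPL22 (0.044) and RPL35A (0.047), and the largest those of the dim genes RPL37 (0.457), RPL3L (0.258) and RPS19 (0.223). Of 8 measured genes often used as references in tissue studies, ACTB had a residual SD of 0.162 and GAPDH of 0.244, above those of 61 and 62 of the 64 genes. YWHAZ, PPIA, HPRT1 and SDHA also varied more than at least 61 of the 64, while TBP (0.071) and B2M (0.073) lay among them.

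**Figure D1:**
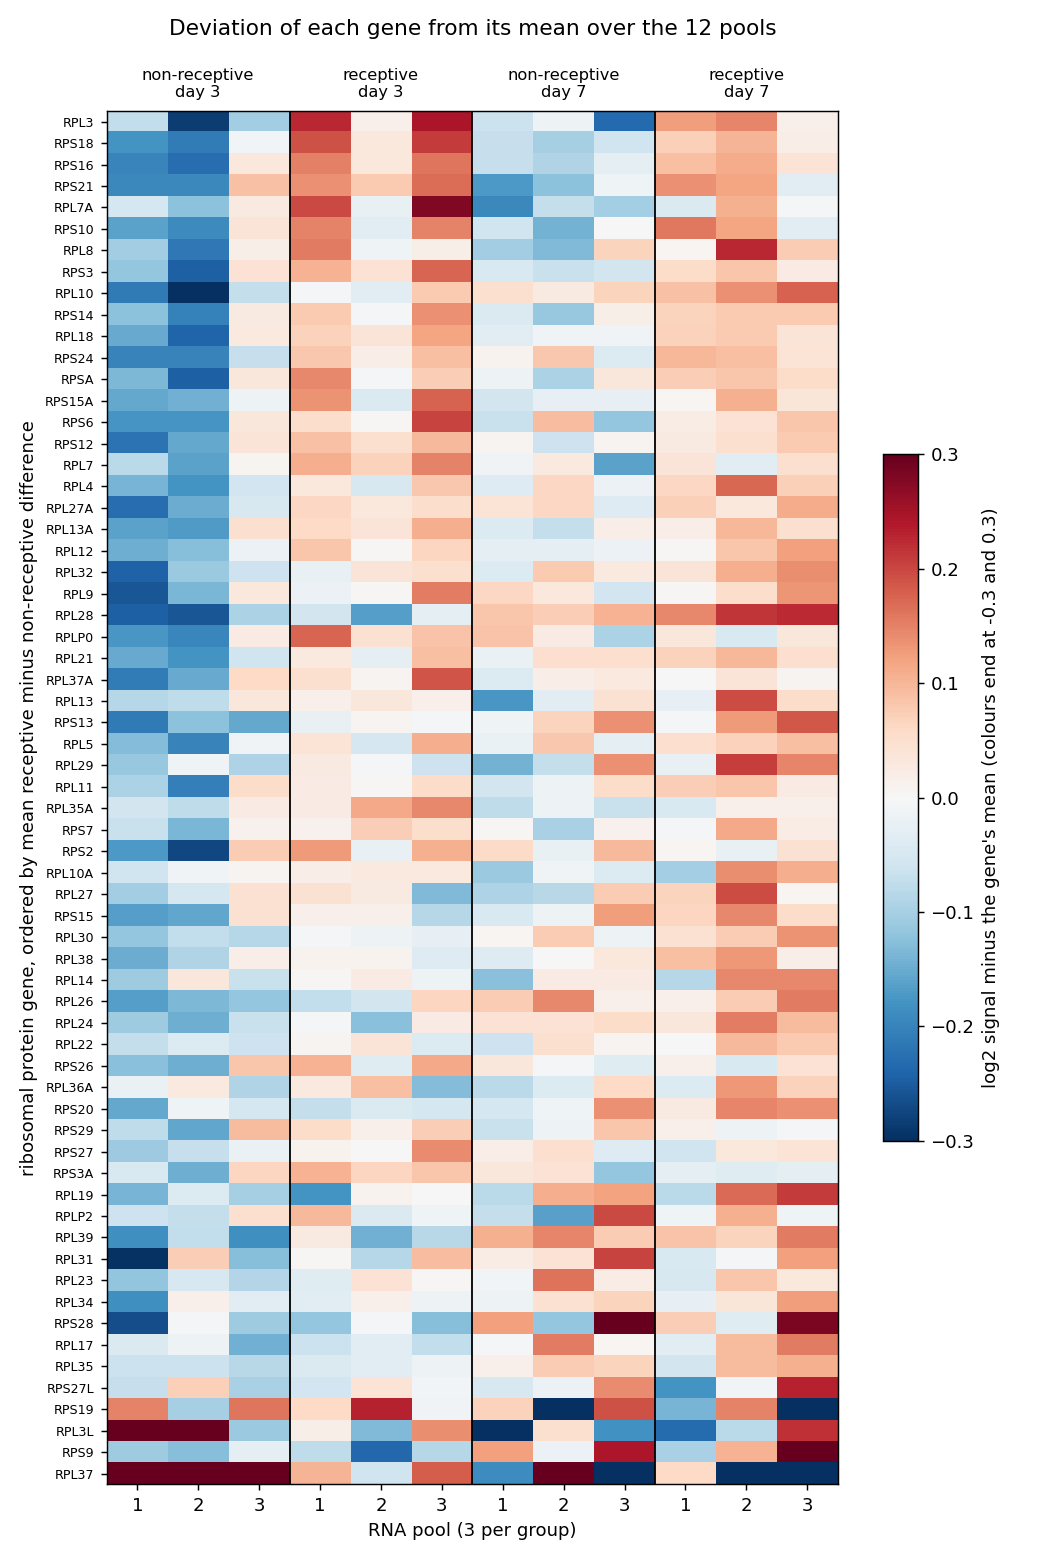
Log2 signal of each of the 64 ribosomal protein genes (lines) in each of the 12 pools (columns), minus the gene's mean over the 12 pools. Pools 1 and 2 of non-receptive day 3 are blue for most genes, with 3 and 7 of the 64 genes above their own mean, while receptive day 7 pools 2 and 3 are mostly red, with 53 and 56 above it.

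The 59 bright genes deviated together from pool to pool. The median correlation between pairs of them, taken on the 12 values left after the group means were removed, was 0.349 over 1711 pairs, of which 78.8% were positive. The same over the 125 other bright probe sets was 0.162, with 64.3% of 7750 pairs positive. All pairs share the same 12 arrays and their scaling, so this is a description of these arrays. Averaged over all 64 genes, the deviation from each gene's mean was -0.115, -0.105 and -0.013 in the 3 non-receptive pools of day 3, and 0.041, -0.001 and 0.059 in the receptive pools of that day. On day 7 it was -0.035, 0.005 and 0.016 in non-receptive and 0.014, 0.066 and 0.067 in receptive pools. The lowest 2 of these 12 means were thus in pools 1 and 2 of non-receptive day 3.

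Day 7 was set against day 3 to see how the messages of the ribosome changed as the cycle advanced. Over both receptivity groups 51 of 64 genes had a positive difference, with a median of 0.046 log2 units, and RPL28 alone passed. It is 1 of 64 genes, 1.56% of them, where 14.2% of all probe sets passed, 4.76% of them higher and 9.44% lower on day 7. For 62 of the 64 genes the 95% interval of the day difference lay within 0.5 log2 units of 0 on either side. The median over all probe sets was -0.05, with 43.4% positive, and over the 125 other bright probe sets -0.018, with 41.6% positive. The count and the median depended on the scaling and the variance: 5 of the 64 genes passed with a median of 0.11 after median centring, 5 with a median of 0.1008 after centring in the genes' whole signal range, 4 with a robust variance whose prior depends on the signal, 3 with array weights, in the upper part of the signals or with the mean of a gene's probe sets, 0 without pool 1 of non-receptive day 3 and 2 without pool 2 of non-receptive day 7. Not all of these were higher on day 7. With array weights, and with the mean of a gene's probe sets, 2 of the 3 were higher. Without pool 2 of non-receptive day 7, 1 of the 2 was higher. In bulk pools, fewer cells of a type and less RNA per cell cannot be told apart.

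RPL28, a protein of the large subunit, had log2 signals of 12.60, 12.59 and 12.75 in non-receptive and 12.79, 12.68 and 12.82 in receptive pools of day 3. On day 7 they were 12.93, 12.92 and 12.95 in non-receptive and 12.99, 13.06 and 13.07 in receptive pools. Every pool of day 7 was thus above every pool of day 3. The difference was 0.28 (SE 0.064, limma adjusted p = 0.0191), a 1.22-fold higher signal, and it was 0.29 in non-receptive and 0.28 in receptive endometrium. With pool 1 of non-receptive day 3 left out, it was 0.27 and did not pass (adjusted p = 0.0548). Under the other alternatives its adjusted p lay between 0.0044 and 0.0484.

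RPL39, a very short protein at the exit tunnel of the large subunit, ran from 12.95 through a median of 13.02 to 13.16 on day 3 and from 13.20 through 13.23 to 13.29 on day 7. The days did not overlap, and the difference of 0.21 (SE 0.063) narrowly missed the threshold with an adjusted p of 0.0509. RPL24 did not overlap either, with 12.78 to 12.95 on day 3 and 12.96 to 13.08 on day 7, and differed by 0.14 (adjusted p = 0.152). These 3 genes, 4.69% of the 64, were those with all pools of day 7 above all pools of day 3, against 2.55% of all probe sets.

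At an unadjusted p under 0.05, 7 of the 64 genes were higher on day 7, 10.9% of them against 11.3% of all probe sets, and 1 was lower, against 19.4% of all probe sets. The others that were higher were RPL10, the protein whose loading completes the large subunit, with 13.37 ± 0.14 on day 3 and 13.55 ± 0.06 on day 7 (log2 signal, SD, n = 6), RPS13, RPS9 and RPL26. Their differences were 0.18, 0.17, 0.22 and 0.16, with adjusted p between 0.0931 and 0.122. RPL10 ran from 13.16 to 13.54 on day 3 and from 13.49 to 13.64 on day 7, so its pools overlapped. The gene on the lower side was the dim RPL37, with 3.74 to 4.50 on day 3 and 2.58 to 4.44 on day 7, a difference of -0.62 (SE 0.244, adjusted p = 0.117). RPL37 passed without pool 2 of non-receptive day 7 (-0.79, adjusted p = 0.0388) and with array weights (-0.76, adjusted p = 0.0253), and its adjusted p lay between 0.0253 and 0.219 over all alternatives. With a robust variance whose prior depends on the signal, RPL28 (adjusted p = 0.0044), RPL39 (0.0153), RPL10 (0.0347) and RPS13 (0.0469) all passed. The adjusted p of RPL39 lay between 0.0153 and 0.141 over the alternatives.

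**Figure D2:**
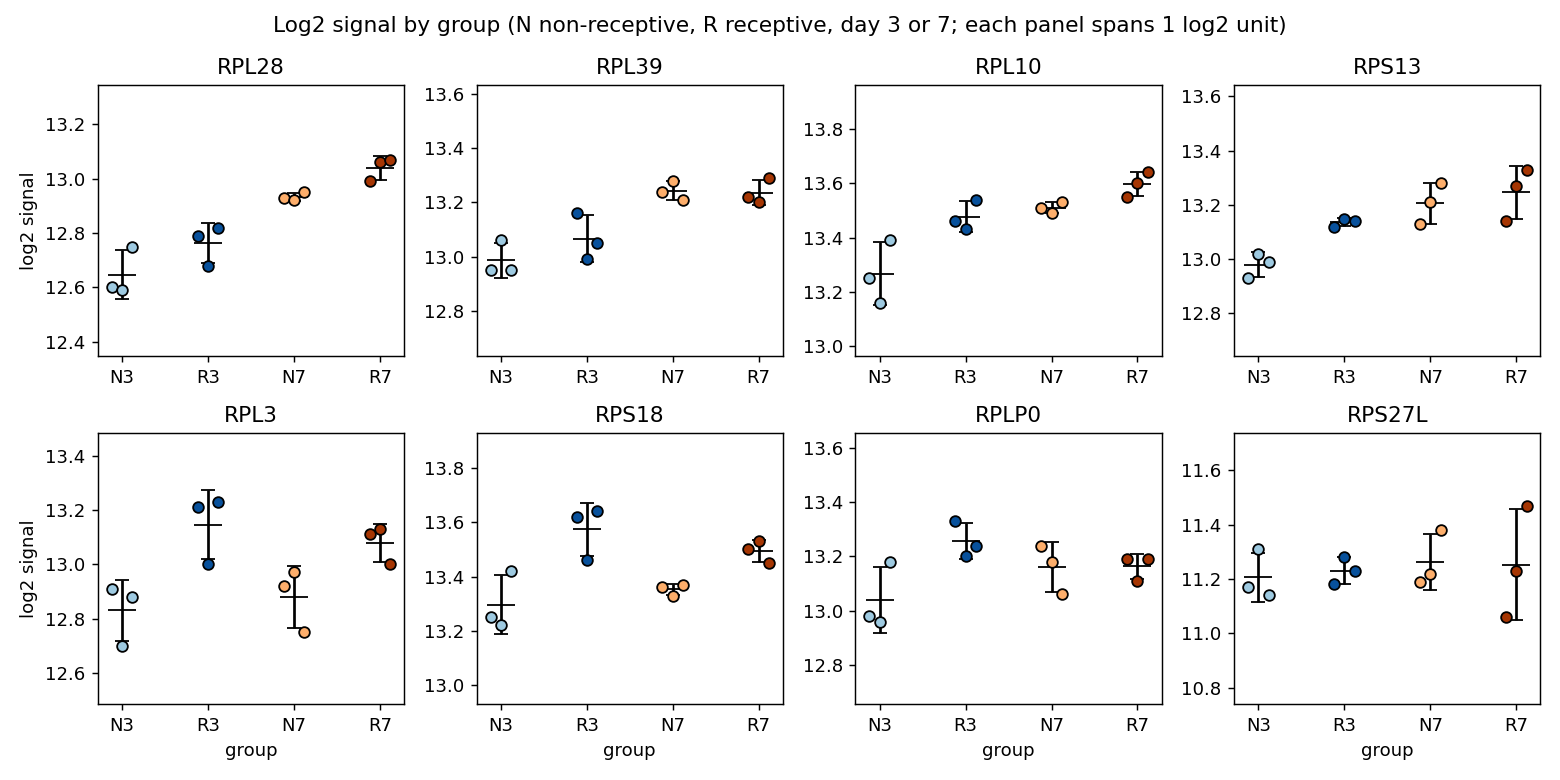
Log2 signal of 8 ribosomal protein genes in the 4 groups of 3 pools (points), with the group mean (dash) and SD (bar). RPL28 and RPL39 have every pool of day 7 above every pool of day 3, RPL3 and RPS18 have every receptive pool above every non-receptive pool, and RPS27L has neither.

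The subunits differed slightly in their day differences, by values that were not tested against each other. The median over the 40 large-subunit genes was 0.066, with 33 positive, and over the 24 small-subunit genes 0.019, with 18 positive. In receptive endometrium the medians were 0.047 and -0.03, with 30 of 40 and 8 of 24 positive. In non-receptive endometrium they were 0.102 and 0.07, with 34 of 40 and 22 of 24 positive.

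Taken by themselves, neither receptivity group gave a ribosomal protein gene that passed between the days. In receptive endometrium 0 of 64 passed, against 1.96% of all probe sets, and RPL28 alone was higher at an unadjusted p under 0.05, against 7.04% of all. In non-receptive endometrium 0 of 64 passed, against 2.48%. At an unadjusted p under 0.05, 5 were higher (RPL28, RPL39, RPL10, RPS13 and RPL26), against 7.83%. The dim RPL3L was lower at that threshold, as were 3048 of all 24016 probe sets. In receptive endometrium the largest positive differences after RPL28 were those of RPS9 (0.24) and RPS28 (0.19), and the largest negative ones those of RPL37 (-0.66), RPS19 (-0.21) and RPL7A (-0.13). In non-receptive endometrium, RPL3L (-0.47) and RPL37 (-0.58) had the largest negative values.

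The proteins of the ribosomal stalk, which recruit elongation factors, had day differences near 0. RPLP0 measured 13.15 ± 0.15 on day 3 and 13.16 ± 0.06 on day 7, with a 95% interval of the difference from -0.14 to 0.17. RPLP2 measured 13.00 ± 0.07 and 13.02 ± 0.13, with an interval from -0.16 to 0.19. RPLP1 was not among the genes found by name, as was the case for RPS4X and for RPS27A, a ribosomal protein made as a fusion with ubiquitin.

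Several proteins known for a second role were also near 0 between the days. RPL5 and RPL11, which bind the p53 regulator MDM2 when assembly fails, differed by 0.08 (interval -0.07 to 0.23) and 0.05 (-0.09 to 0.20). RPS6, the substrate of S6 kinase, differed by 0.02 (-0.15 to 0.19). RPSA, also known as the laminin receptor, differed by 0.05 (-0.11 to 0.20), and RPS14, a protein of the small subunit's platform, by 0.03 (-0.12 to 0.18). RPS3, which also acts in DNA repair, had means of 13.24 on both days, and RPL22, which binds viral and cellular RNA, differed by 0.06 (-0.08 to 0.19).

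**Figure D3:**
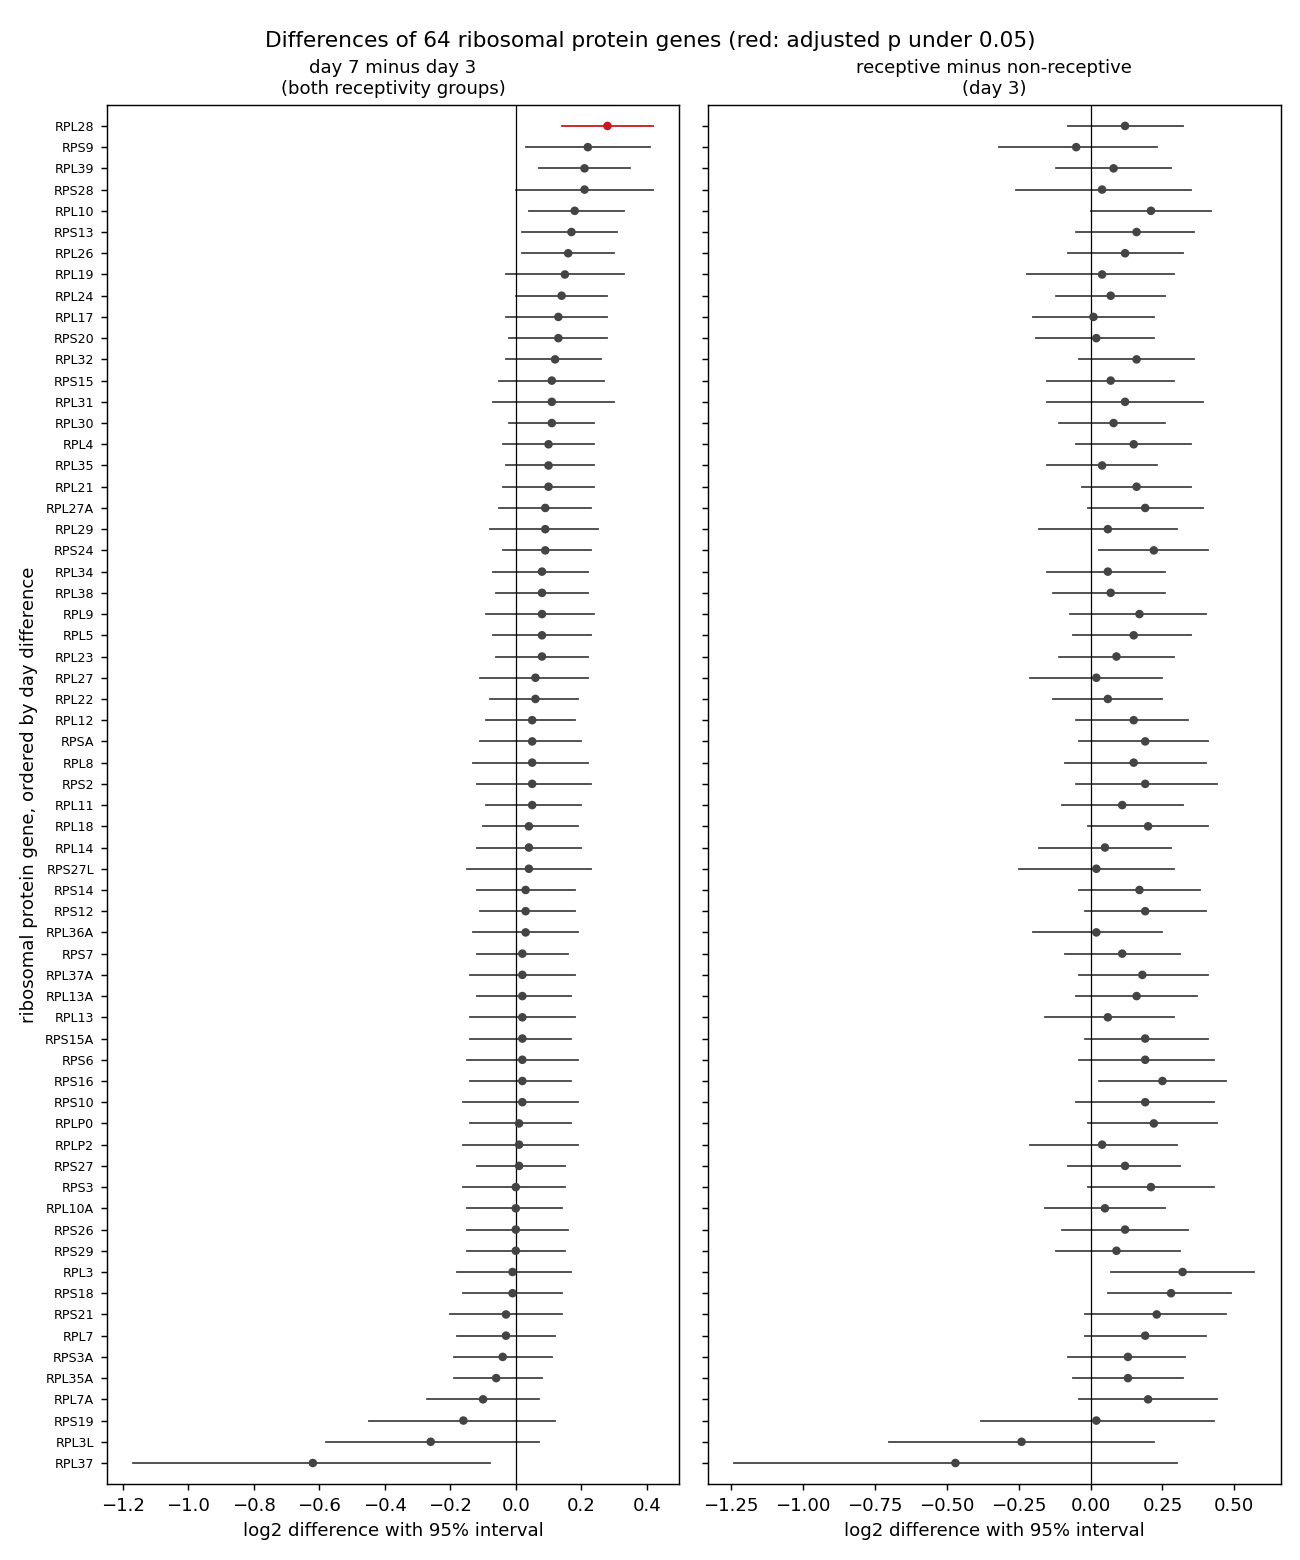
Log2 difference (points) with its 95% interval (lines) for the 64 ribosomal protein genes, for day 7 minus day 3 over both receptivity groups (left) and receptive minus non-receptive endometrium on day 3 (right). On the left RPL28 (0.28) is the gene that passed. On the right 61 of 64 genes are positive with none passing, with a median of 0.122. This median was 0.0046 after quantile normalization and -0.0183 with arrays centred on other bright probe sets. That centring was chosen after the data had been seen, and these probe sets differed alike (median 0.11).

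The comparison of receptive with non-receptive endometrium on day 3 asked whether the messages of the ribosome differed with the receptivity that the labels give. None of the 64 genes passed, against 0.0125% of all probe sets, and the smallest adjusted p was 0.936. The differences nevertheless lay on one side: 61 of 64 were positive, with a median of 0.122 that turned to -0.0183 when arrays were centred on other bright probe sets, while the median over all probe sets was -0.013. This was shared by other bright probe sets, of which 81.6% were positive with a median of 0.11. The 23 other probe sets of the 64 genes, mostly dimmer, did not share it, with 10 positive and a median of -0.067. At an unadjusted p under 0.05, 5 of the 64 genes were higher in receptive pools, 7.81% against 2.59% of all probe sets and 4% of the other bright ones.

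Those 5 genes were RPL3, RPS18, RPS16, RPS24 and RPL10. RPL3, which sits near the site of peptide bond formation, had log2 signals of 12.91, 12.70 and 12.88 in non-receptive and 13.21, 13.00 and 13.23 in receptive pools, a difference of 0.32 (SE 0.111, adjusted p = 0.936). RPS18, of the head of the small subunit, had 13.25, 13.22 and 13.42 in non-receptive and 13.62, 13.46 and 13.64 in receptive pools, a difference of 0.28 (SE 0.096). In both genes the lowest receptive pool was above the highest non-receptive pool. RPS16 differed by 0.25, with pools that met at 13.32, RPS24 by 0.22 and RPL10 by 0.21. These sizes depended on the processing. After quantile normalization RPL3 differed by 0.1994, RPS18 by 0.1297 and RPS16 by 0.0849, with arrays centred on other bright probe sets by 0.1767, 0.1367 and 0.1067, and RPL3 by 0.025 as the mean of its probe sets.

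All 3 receptive pools were above all 3 non-receptive pools of day 3 in 20 of the 64 genes, 31.2% of them, against 4.61% of all probe sets. Of the 125 other bright probe sets, 28 (22.4%) did so. The reverse held for RPL37 alone among the 64, against 6.24% of all probe sets, with 4.50, 4.39 and 4.15 in non-receptive and 3.90, 3.74 and 3.98 in receptive pools. The dim genes had no common direction, with differences of -0.47 in RPL37, -0.24 in RPL3L, 0.02 in RPS19, 0.04 in RPS28 and 0.02 in RPS27L.

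On day 7, again none of the 64 genes passed between receptive and non-receptive endometrium, against 0% of all probe sets, and 0 were higher at an unadjusted p under 0.05, against 2.15%. The differences were positive in 52 genes, with a median of 0.067 (-0.0006 after quantile normalization, -0.0433 with centring on other bright probe sets), and 70.4% of the other bright probe sets were positive with a median of 0.057. The largest were in RPL3 (0.20), in the dim RPL3L (0.19) and in RPS21 (0.18), whose signal was 13.00 ± 0.08 in non-receptive and 13.18 ± 0.09 in receptive pools (SD, n = 3). Receptive pools lay above all non-receptive pools in 13 of the 64 genes, 20.3% against 4% of all probe sets. Of the other bright probe sets, 10 of 125 (8%) did so.

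Over both days, 60 of 64 genes had a positive receptivity difference, with a median of 0.089 (-0.0074 after quantile normalization, -0.0358 with centring on other bright probe sets), and none passed, against 0.00416% of all probe sets. At an unadjusted p under 0.05, 9 of the 64 were higher in receptive pools, 14.1% against 2.46% of all and 5.6% of the other bright probe sets. In 4 genes, 6.25% against 0.0791% of all probe sets, all 6 receptive pools lay above all 6 non-receptive ones. RPL3 ran from 12.70 through a median of 12.90 to 12.97 in non-receptive and from 13.00 through 13.12 to 13.23 in receptive pools, a difference of 0.26 (SE 0.079, adjusted p = 0.636). RPS18 ran from 13.22 to 13.42 and from 13.45 to 13.64, a difference of 0.21 (SE 0.068, adjusted p = 0.646).

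RPL12 and RPL18, both of the large subunit, were the other 2 of these 4 genes. RPL12, which lies at the base of the stalk, ran from 12.69 to 12.82 and from 12.84 to 12.96, and RPL18 from 13.27 to 13.54 and from 13.55 to 13.63. The gap between the groups was thus 0.02 log2 units or less in either gene, near the 2 decimals of the table. None of the 125 other bright probe sets had all receptive pools above all non-receptive ones over both days.

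The size of the receptivity differences, and in part their direction, depended on the scaling between arrays. Median centring and centring in the genes' whole signal range left the medians near the reported ones. Cyclic loess gave 0.0648 on day 3. After quantile normalization, the median over the 64 genes was 0.0046 on day 3, -0.0006 on day 7 and -0.0074 over both days. Centring each array on the 125 other bright probe sets, an alternative chosen after the data had been seen, gave -0.0183, -0.0433 and -0.0358. On day 3 no other alternative gave a negative median. This centring also moved the day 3 median of all probe sets from -0.013 to -0.153. As deposited, the medians of the ribosomal protein genes were close to those of these bright probe sets, 0.122 against 0.11 on day 3, 0.067 against 0.057 on day 7 and 0.089 against 0.093 over both days. Centring on these probe sets was thus bound to bring the medians of the ribosomal protein genes near 0. RPL3 (0.0558 to 0.2608) and RPS18 (0.0833 to 0.232) stayed positive over both days under the 12 alternatives that kept every pool. The median day difference stayed positive under these alternatives, between 0.0296 and 0.11.

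**Figure D4:**
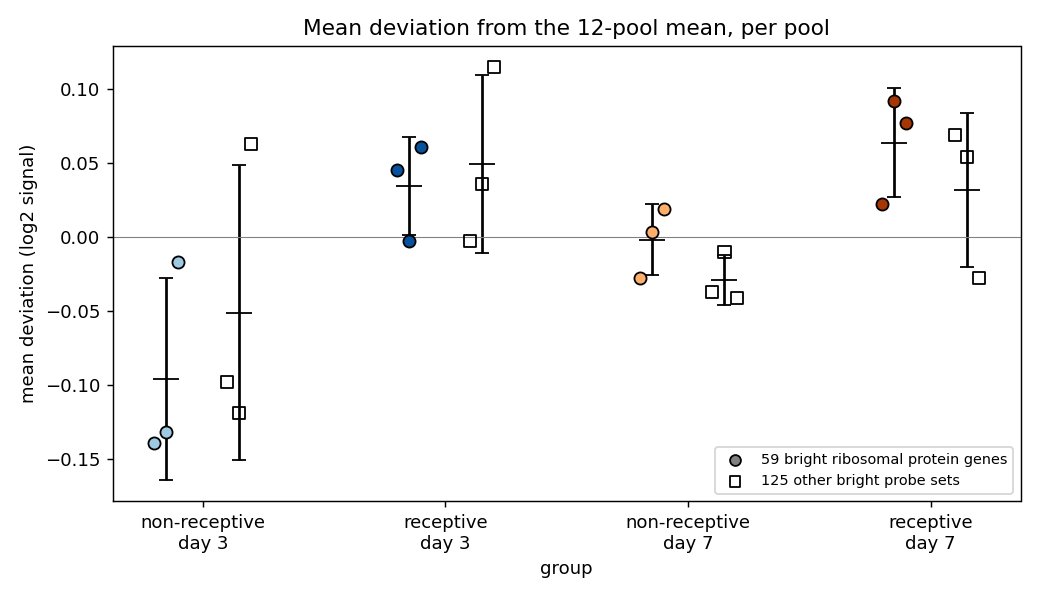
Mean deviation from the 12-pool mean, in log2 units, of the 59 bright ribosomal protein genes (circles) and of 125 other probe sets in the same signal range (squares) in each of the 3 pools of a group, with the group mean (dash) and SD (bar). Both sets are lowest in non-receptive day 3. On each day their receptive means (0.034 and 0.049 on day 3, 0.064 and 0.032 on day 7) are above their non-receptive means. The size of this gap depends on the scaling. The day 3 receptivity median of all 64 genes was 0.0046 after quantile normalization and -0.0183 with arrays centred on the other bright probe sets. That centring was chosen after the data had been seen. As both sets moved alike, it was bound to bring the median near 0.

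A sign of RNA length moved with receptivity. The gap between the 3' and 5' probe sets of the actin control was 1.05 to 3.11 log2 units in receptive and 0.48 to 0.93 in non-receptive pools of day 3, and 0.82 to 1.25 and 0.02 to 0.63 on day 7. The same gap of the GAPDH control was 0.53 to 1.04 and 0.66 to 0.82 on day 3, and 0.37 to 0.96 and 0.62 to 0.72 on day 7, with overlap on both days. The part of RNA length in the differences of the ribosomal protein genes was not tested.

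The day differences of receptive and non-receptive endometrium were compared in the interaction. It was negative in 50 of 64 genes, with a median of -0.077 (0.0016 after quantile normalization), against -0.06 over the other bright probe sets. None of the 64 genes passed, against 0% of all probe sets, the smallest adjusted p was 0.999, and 0 had an unadjusted p under 0.05, against 3.39% of all. The largest negative values were in RPS2 (-0.23), RPLP0 (-0.21) and RPL31 (-0.19), and the largest positive ones in RPL3L (0.43), RPL27 (0.11) and RPL29 (0.08). RPLP0, for example, measured 13.04 ± 0.12 and 13.16 ± 0.09 in non-receptive pools of day 3 and day 7, and 13.26 ± 0.07 and 13.16 ± 0.05 in receptive pools (SD, n = 3).

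Probe sets of the same gene often disagreed. The 23 other probe sets of the 16 genes with several lay between 0.01 and 8.66 log2 units below the brightest one, with a median gap of 4.8. Of the 23, 12 had the same sign of the day difference. Between receptivity groups, 10 of the 23 were positive on day 3, 7 on day 7 and 9 over both days. The medians were -0.067, -0.107 and -0.08. For RPL10, both bright probe sets were higher on day 7, by 0.18 and 0.11. For RPLP0, the second bright probe set differed by 0.16 where the first differed by 0.01, and neither passed; by their design both may bind related transcripts. Of the 64 probe sets used, 12 end in _a_at and 1 in _x_at, the kinds that bind several transcripts, and 51 are plain. Ribosomal protein genes have many processed copies in mammalian genomes, and binding of such copies was not tested.

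Among these 23 dimmer probe sets 6 passed between the days, 26.1% against 14.2% of all probe sets. Of the 6, 2 were higher and 4 lower on day 7, as were 4.76% and 9.44% of all probe sets. The 4 lower ones had a sign opposite to that of the bright one or a bright one near 0. A second RPL24 probe set ran from 8.35 to 9.32 on day 3 and from 7.52 to 8.35 on day 7, a difference of -0.93 (adjusted p = 0.0084), while the bright one differed by 0.14. Second probe sets fell by 0.52 in RPS27L, 0.50 in RPS7 and 0.34 in RPL3 (adjusted p = 0.0112, 0.0171 and 0.0421), where the bright ones differed by 0.04, 0.02 and -0.01. Those of RPL32 (0.47) and RPL26 (0.37) rose (adjusted p = 0.0228 and 0.0485), in the direction of the bright ones (0.12 and 0.16). Which transcript these dimmer probe sets detect is not given, and they did not enter the counts above.

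Genes that act around the ribosome were read from lists. Of 60 listed genes of ribosome assembly and the nucleolus, 50 were measured, and between the days 18 fell, where 9.44% of all probe sets did, and 1 rose, where 4.76% did, with a median difference of -0.263 against -0.05 over all probe sets. NOP56, a core protein of the small nucleolar particles that methylate ribosomal RNA, ran from 10.40 through a median of 10.57 to 10.83 on day 3 and from 9.45 through 9.77 to 10.08 on day 7, and fell by 0.83 (SE 0.124, adjusted p = 0.00438). NOLC1, a chaperone of these particles, fell by 0.64, DKC1, the pseudouridine synthase, by 0.58, and WDR43, of the complex that processes the small subunit's RNA, by 0.40, all 3 with no overlap between the days. POLR1D, a shared subunit of RNA polymerases I and III, rose by 0.51. The count of genes that fell was between 9 and 20 when single pools were left out. It was 9 without pool 1 and 11 without pool 2 of non-receptive day 3, 10 without pool 1 of receptive day 3, 9 without pool 1 of non-receptive day 7 and 11 without pool 1 of receptive day 7, and 10 or 11 under median centring, centring in the signal range of the ribosomal protein genes and quantile normalization.

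**Figure D5:**
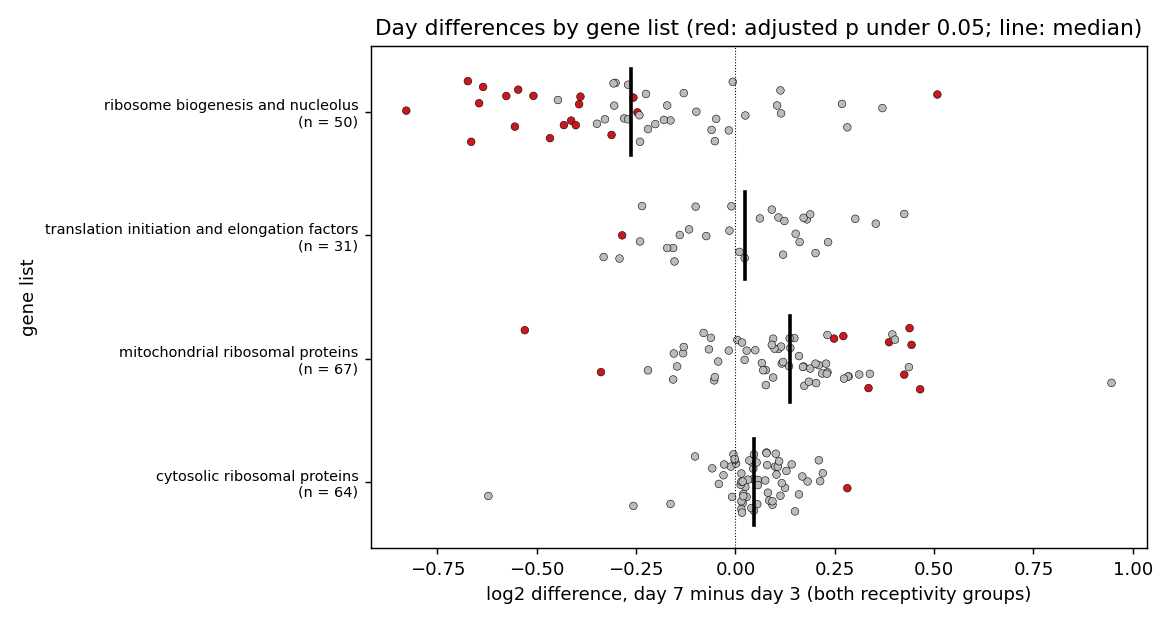
Log2 difference between day 7 and day 3 over both receptivity groups for each gene of 4 lists (points, red where the adjusted p was under 0.05), with the median of each list (black line). The 64 cytosolic ribosomal protein genes are gathered near 0 (median 0.046), the ribosome assembly genes lie mostly below it (-0.263) and the mitochondrial ribosomal proteins mostly above it (0.137).

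The 67 mitochondrial ribosomal protein genes were found by symbol, and 52 of them had a positive day difference, with a median of 0.137. Of these 67, 8 rose and 2 fell, where 4.76% of all probe sets rose and 9.44% fell. MRPL50 ran from 8.07 to 8.41 on day 3 and from 8.51 to 8.92 on day 7, a difference of 0.44 (SE 0.0867, adjusted p = 0.0111), MRPL43 rose by 0.46 and MRPS15 by 0.43, while MRPL15 fell by 0.53. The count that rose was between 3 and 9 with single pools left out. It was 3, 5 and 5 without pools 1, 2 and 3 of non-receptive day 3, 5 and 4 without pools 2 and 3 of receptive day 3, 4 without pool 1 or pool 3 of non-receptive day 7 and 4 without pool 3 of receptive day 7. It was 17 with array weights, 14 in the upper part of the signals and 4 with arrays centred on the other bright probe sets. The differences between the cytosolic, assembly and mitochondrial lists were not tested.

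Other lists covered genes of translation and of the signals that act on it. Of 31 measured initiation and elongation factors, with a median of 0.023, none rose (3 were higher at an unadjusted p under 0.05) and EIF2B4, a subunit of the exchange factor for initiation, fell by 0.28. Of 17 measured genes outside the name rule that were listed for the same pyrimidine-rich start, the median was 0.018. Their start sequences were not checked. At an unadjusted p under 0.05, 4 were higher and 1 lower, as were 11.3% and 19.4% of all probe sets. The initiation factor subunit EIF3H rose by 0.45 and IMPDH2, of guanine nucleotide synthesis, fell by 0.73. FAU, which encodes a ribosomal protein as a fusion and is not matched by the name rule, differed by 0.11 (adjusted p = 0.264). Of 17 measured genes of mTOR and S6 kinase signalling, 6 had a positive day difference, and the median was -0.055. The mTOR inhibitor DDIT4 (0.67), the kinase RPS6KA3 (0.58) and LAMTOR3 (0.28), a lysosomal anchor of mTOR, rose. RPTOR, the scaffold of the mTOR complex, fell by 0.23. Among all probe sets, 4.76% rose and 9.44% fell. None of 5 measured genes of the p53 response passed, and SESN2, a stress-induced inhibitor of mTOR, had an unadjusted p under 0.05 (0.28, adjusted p = 0.122).

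Markers of other cells moved between the days beside these results. All 3 measured neutrophil markers, S100A8, S100A9 and S100A12, rose, while CXCR2, also listed, was not measured. The summed log2 level of the 3 was 7.59 to 10.31 on day 3 and 11.34 to 13.72 on day 7. Which cells gave this signal was not tested. All 4 squamous keratins rose, with summed levels of 7.85 to 8.59 and 8.98 to 11.46. Of 6 stromal markers all had negative differences and COL3A1 passed, with summed levels of 11.39 to 14.32 and 11.11 to 12.82, and none of 6 epithelial markers passed, with 14.40 to 14.73 and 14.35 to 14.82 and with KRT18 (0.38) and CDH1 (-0.22) at an unadjusted p under 0.05. Of 5 leukocyte markers PTPRC fell, with summed levels of 9.94 to 10.50 and 9.54 to 10.15. Of 4 endothelial markers CDH5 fell, with 7.28 to 7.78 and 6.87 to 7.39. Of 3 red blood cell markers HBB rose and ALAS2 fell, with 6.55 to 6.97 and 6.64 to 7.07. Of 4 measured genes that mark the endometrium, ESR1 and HOXA10 fell. The summed level was 10.31 to 11.04 on day 3 and 8.83 to 11.26 on day 7. This sum was mostly OXTR, with means of 10.75 and 9.58. Means of ESR1, PGR and HOXA10 lay between 3.57 and 5.44 on either day. No marker was at 0 in all pools of a group, none passed between receptivity groups on day 3 (VWF, at 1.29, had an unadjusted p of 0.0161). On day 7 none passed either, with KRT5 (-1.81), KRT15 (-1.36), COL3A1 (-1.54), ESR1 (-0.63) and OXTR (1.43) at an unadjusted p under 0.05 between receptive and non-receptive pools. The summed level of the squamous keratins was 8.98 to 11.15 in receptive and 10.93 to 11.46 in non-receptive pools of day 7. That of the stromal markers was 11.11 to 12.11 and 11.33 to 12.82. That of the endometrial markers, mostly OXTR, was 8.96 to 11.26 and 8.83 to 9.25. PGR (-0.59) and HOXA10 (-0.70) were, like ESR1, lower in receptive pools of day 7. The part of cell composition in the ribosomal protein genes was not tested.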

How the data were processed

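The authors deposited 1 table of log2 signals for 12 Affymetrix bovine arrays. Affymetrix Expression Console, PLIER and GCOS 1.1.1 appear in the submitters' processing notes, with no role or order. How arrays were scaled is not given in the sources used. Most ribosomal protein genes lie near the top of the scale, and whether their signals near saturation was not tested. Values were used as deposited. The 112 control probe sets were left out, and genes were named from platform annotation (13292 probe sets with 1 symbol, 86 with several, 10638 with none, named from 1 symbol only).

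With limma 3.58.1 (R 4.3.3), lmFit and eBayes gave each of 4 groups a mean over the 12 arrays, with 7 contrasts, two-sided tests and Benjamini-Hochberg adjustment over 24016 probe sets at 0.05. The study's design was taken from the labels. The fit was tested on simulated data with independent noise in each probe set and planted day differences larger than nearly all those of the ribosomal protein genes. That test thus does not cover small differences or genes that vary together. Named were members with a known extra role, the 3 largest differences in either direction and those that passed in each contrast, the 3 largest and smallest residual SDs, members with a passing second probe set, and up to 4 passing genes of each other list. Names beyond this rule (those at an unadjusted p under 0.05 or without overlap) were chosen after their values were seen. The members and lists were chosen with earlier results of these data known. Start-site sequences were not analysed here. Alternatives changed the scaling, filter, probe set choice, variance model, array weights, pool number as a block and each pool left out.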

Additional observations from a re-analysis of the deposited data

How the results depend on the processing

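Of 391 alternative values of counts and medians, 340 stayed near the reported ones, and of 1015 of single genes, 990 kept direction and side of the threshold. Counts were judged by a ratio, and medians by the SD between pools of the genes' mean deviation (0.038). Filters, the variance trend and the pool number as a block cannot change a group difference, such as that of RPL3 on day 3 (0.3167). Most named genes also lay far from the threshold. These totals thus overstate how stable the results are. No alternative called a ribosomal protein gene in a receptivity comparison or the interaction. The count that passed between the days (1) was 5 with median centring and with centring in the genes' whole signal range, 3 in the upper part of the signals, with array weights or with the mean of a gene's probe sets, 4 with an intensity trend and robust variance, 7 over every probe set, and 0 to 2 with a pool left out (0 without pool 1 of non-receptive day 3, 2 without pool 2 of non-receptive day 7). In non-receptive endometrium it was 1 over every probe set, 1 with the trend and 3 with array weights, and in receptive endometrium 1 over every or plain probe sets. These counts hold both directions. Over both groups, 3 of the 7 over every probe set and 2 of the 3 with array weights were higher on day 7. In the single groups, 2 of the 3 with array weights were higher, and those over every or plain probe sets were lower. The median day difference was 0.11 with median centring and 0.1008 with range centring over both groups, 0.1333 and 0.13 in non-receptive endometrium (0.0162 after quantile normalization, 0.0483 to 0.1175 with a pool left out), and 0.0917 and 0.0767 in receptive endometrium. That of the interaction was 0.0016 after quantile normalization. The median receptivity difference after quantile normalization was 0.0046 on day 3, -0.0006 on day 7 and -0.0074 over both days, and after centring on bright probe sets -0.0183, -0.0433 and -0.0358. On day 3 it was also 0.0648 after cyclic loess, 0.1602 with array weights and 0.1033 to 0.1658 with a pool left out. Assembly genes that fell numbered 10, 11 and 10 with median centring, quantile normalization and range centring, and 9 to 20 with a pool left out. Mitochondrial genes that rose numbered 4 with bright centring, 14 in the upper part of the signals, 17 with array weights, and 3 to 9 with a pool left out. Signs near 0 turned in RPL3L over both days (0.0393 after quantile normalization, 0.0435 after cyclic loess, 0.0656 with array weights, -0.1133 to 0.0467 with a pool left out), and with a pool left out in RPS19 (-0.235 to 0.06 between days in non-receptive endometrium, -0.2467 to 0.0517 between receptivity groups on day 7) and RPS9 (-0.075 to 0.005 on day 3, -0.08 to 0.02 over both days). The causes were not tested. Pools with the same number in different groups had r from -0.179 to 0.136 (18 pairs, 3 over 0.1), and other pairs -0.149 to 0.155. Between the days, same-number pools had r of 0.136, 0.052 and 0.122 in receptive endometrium. In non-receptive endometrium these were 0.018, 0.028 and -0.038. Whether same-number pools of the 2 days share heifers is not stated. With the pool number as a replicate block, 1 ribosomal protein gene passed between the days, RPL28 (adjusted p = 0.0312), 0 passed elsewhere, 7 mitochondrial genes rose and 12 assembly genes fell. The number of arrays limits the precision.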
